A study of Mus musculus with 48 samples.

Results

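The organic anion transporting polypeptides are membrane carriers encoded by the Slco genes, and 7 of them were followed here: Slco1a1, Slco1a4, Slco1a6, Slco2a1, Slco2b1, Slco3a1 and Slco4c1. They were the rows of a deposited count table whose Ensembl identifiers carry these symbols, 7 of 55487 rows, and each symbol matched 1 row. RNA-seq had been run on 48 libraries of kidney slices kept alive outside the body, taken from male C57BL/6J and DBA/2J mice, both inbred strains. In each strain the slices were controls at 6 h or 24 h, were given tunicamycin or cyclosporin A for the same times, or were held under normoxia, which the labels call a model of ischemia, or under normoxia followed by hyperoxia, a model of reperfusion. Strain and condition together made 16 groups of 3 libraries, and the titles place the normoxia and normoxia-hyperoxia slices at 24 h. The labels give no age of the mice, no drug dose, no oxygen level for the control slices and no time of the oxygen switch. Nothing says whether the replicates of a group came from separate mice, so the p-values measure the spread between these libraries, which may be technical. The titles also name the oxygen groups as belonging to an ischemia and reperfusion experiment and the other groups to a nephrotoxicity experiment, so oxygen condition and experiment cannot be told apart.

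Organic anion transporting polypeptides move large amphipathic molecules across the cell membrane without using the sodium gradient. Their cargo includes bile acids, conjugated steroids, thyroid hormones, prostaglandins and many drugs. In the kidney Slco1a1 and Slco1a6 are known from the proximal tubule, the segment that reclaims most of the filtrate, and Slco1a1 is known to be raised by androgens in male mice. Slco2a1 is the prostaglandin transporter, which clears prostaglandins from outside the cell, and Slco4c1 is a basolateral carrier of thyroid hormone, digoxin and uremic solutes. Slco2b1 carries steroid sulfates, and Slco3a1 is a widely expressed carrier of prostaglandins and thyroxine. Tunicamycin blocks N-linked glycosylation, and cyclosporin A is an immunosuppressant that inhibits calcineurin and injures the kidney.

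Libraries held 5.62 M to 25.1 M counts (median 19.6 M). DBA/2J replicate 2 under normoxia-hyperoxia was the shallowest, followed by a library of 12.4 M. Of all libraries compared within their groups, no pair of replicates held identical values. Levels are in CPM, the field's unit for a count taken relative to the total of its library, and CPM per kilobase of exon (CPM/kb) where genes are compared with each other. The proximal tubule, loop of Henle, collecting duct, podocyte and endothelial markers of kidney tissue were all detected in every group. The summed level of 4 liver markers (Alb, Apoa1, Ttr, Serpina1a) reached at most 110.3 CPM in a library.

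Of the family, Slco1a1, Slco1a4 and Slco1a6 lie together on the minus strand of chromosome 6 (GRCm38, with GENCODE M21 gene models). Slco1a1 spans chr6:141907282-141946962, Slco1a4 spans chr6:141805440-141856199 and Slco1a6 spans chr6:142085761-142208521. Slco2b1 lies at chr7:99657804-99711340 and Slco3a1 at chr7:74275419-74554780, both on the minus strand. Slco2a1 lies at chr9:102988712-103096002 on the plus strand, and Slco4c1 at chr1:96816270-96872171 on the minus strand. RefSeq promoter windows on GRCm38.p6, from 250 bases before to 50 bases after a start site, were found for 6 of the 7 genes, and Slco3a1 had none. The windows of Slco1a1 and Slco1a6 are shown because these neighbours changed in the same direction with time in culture and with each oxygen setting, and that of Slco2a1 because it changed the other way with time and under normoxia. The windows are chr6:141946913-141947212 (minus strand), chr6:142186100-142186399 (minus strand) and chr9:103008237-103008536 (plus strand), each read 5′ to 3′ in the direction of its gene. The RefSeq start sites of Slco1a6 and Slco2a1 lie inside the GENCODE gene spans above. Capitals mark exact matches, on either strand, to the letters of 5 of the motifs searched: GTTAAT (HNF1), AGGTCA (HNF4 and related nuclear receptors), TGACTCA (AP-1), ACGTG (hypoxia response) and the TATA box, TATAAA.
Slco1a1: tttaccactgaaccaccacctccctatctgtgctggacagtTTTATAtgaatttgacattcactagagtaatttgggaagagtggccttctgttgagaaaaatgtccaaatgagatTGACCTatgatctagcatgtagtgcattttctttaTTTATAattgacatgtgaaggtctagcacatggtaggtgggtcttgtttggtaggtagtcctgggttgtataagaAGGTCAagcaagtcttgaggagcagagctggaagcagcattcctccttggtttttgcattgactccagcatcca
Slco1a6: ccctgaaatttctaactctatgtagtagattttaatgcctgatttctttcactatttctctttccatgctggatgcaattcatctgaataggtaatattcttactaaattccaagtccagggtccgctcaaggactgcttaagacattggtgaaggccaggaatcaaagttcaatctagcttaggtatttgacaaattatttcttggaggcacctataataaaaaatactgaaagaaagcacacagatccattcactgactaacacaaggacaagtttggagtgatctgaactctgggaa
Slco2a1: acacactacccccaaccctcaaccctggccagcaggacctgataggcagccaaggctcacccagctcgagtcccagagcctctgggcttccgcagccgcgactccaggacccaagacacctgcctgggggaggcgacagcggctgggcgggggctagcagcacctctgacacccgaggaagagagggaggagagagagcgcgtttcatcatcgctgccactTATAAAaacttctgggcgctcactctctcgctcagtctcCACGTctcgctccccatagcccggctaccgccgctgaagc

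The Slco1a1 window held AGGTCA at 2 places, 134 bases before the start site in reverse complement and 24 bases before it as printed, and TATAAA in reverse complement at 2 places. AGGTCA occurred in 16.3% of all 32851 windows of this length. The Slco1a6 window held none of the 5 motifs, and neither did that of Slco1a4. The Slco2a1 window held TATAAA starting 29 bases before the start site, a motif found in 13.6% of all windows, and ACGTG in reverse complement just after the start site, found in 19.6%. GC content was 42% and 37.3% in the Slco1a1 and Slco1a6 windows against 64.0% in that of Slco2a1. The median of all windows was 52.7%. Among the other members it was 40.7% for Slco1a4, 63.0% for Slco4c1 and at least 52.3% in each Slco2b1 window. All of these members rose under normoxia, as Slco1a1 and Slco1a6 did, so GC content did not separate the members by direction of change. None of the windows held GTTAAT, which occurred in 7.1% of all windows. Elsewhere in the family TGACTCA, found in 5.2% of all windows, matched 1 of the 3 Slco2b1 windows. These matches describe letters in the reference and were not measured in the slices.

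In 6 h control slices of C57BL/6J, Slco1a6 had the highest level per length of the 7 genes at 13.4 ± 3.48 CPM/kb, followed by Slco3a1 at 10.7 ± 1.02, Slco1a1 at 7.54 ± 2.12 and Slco2a1 at 6.91 ± 1.04 (SD, n = 3). In DBA/2J the order differed, with Slco1a1 first at 32.6 ± 6.77 CPM/kb, Slco1a6 at 25.7 ± 3.03, Slco3a1 at 12.6 ± 0.315 and Slco2a1 at 5.56 ± 0.65 (SD, n = 3). Slco2b1 lay lower at 3.61 ± 0.932 and 2.4 ± 0.258 CPM/kb in the C57BL/6J and DBA/2J 6 h controls. Slco1a4 and Slco4c1 were near the limit of detection, at 0.158 to 0.217 and 0.1 to 0.15 CPM/kb in group mean, and averaged 23.3 and 26.9 counts per library over all 48. Levels of single genes carry some uncertainty from shared sequence. Of the 50-base words in each gene's exons, 1.64% of those of Slco1a1, 1.61% of Slco1a4 and 6.59% of Slco1a6 occur in another gene. The shares were 1.28% for Slco2a1 and 5.89% for Slco2b1, with none for Slco3a1 and Slco4c1. Slco1a6 shared most with Gm6614, which held 308 counts in all libraries together and at most 39 in a library, against 47976 for Slco1a6. Slco1a1 shared most with Slco1a4, and Slco2b1 with its antisense neighbour Gm15635, which held 4 counts in all libraries together.

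**Figure D1:**
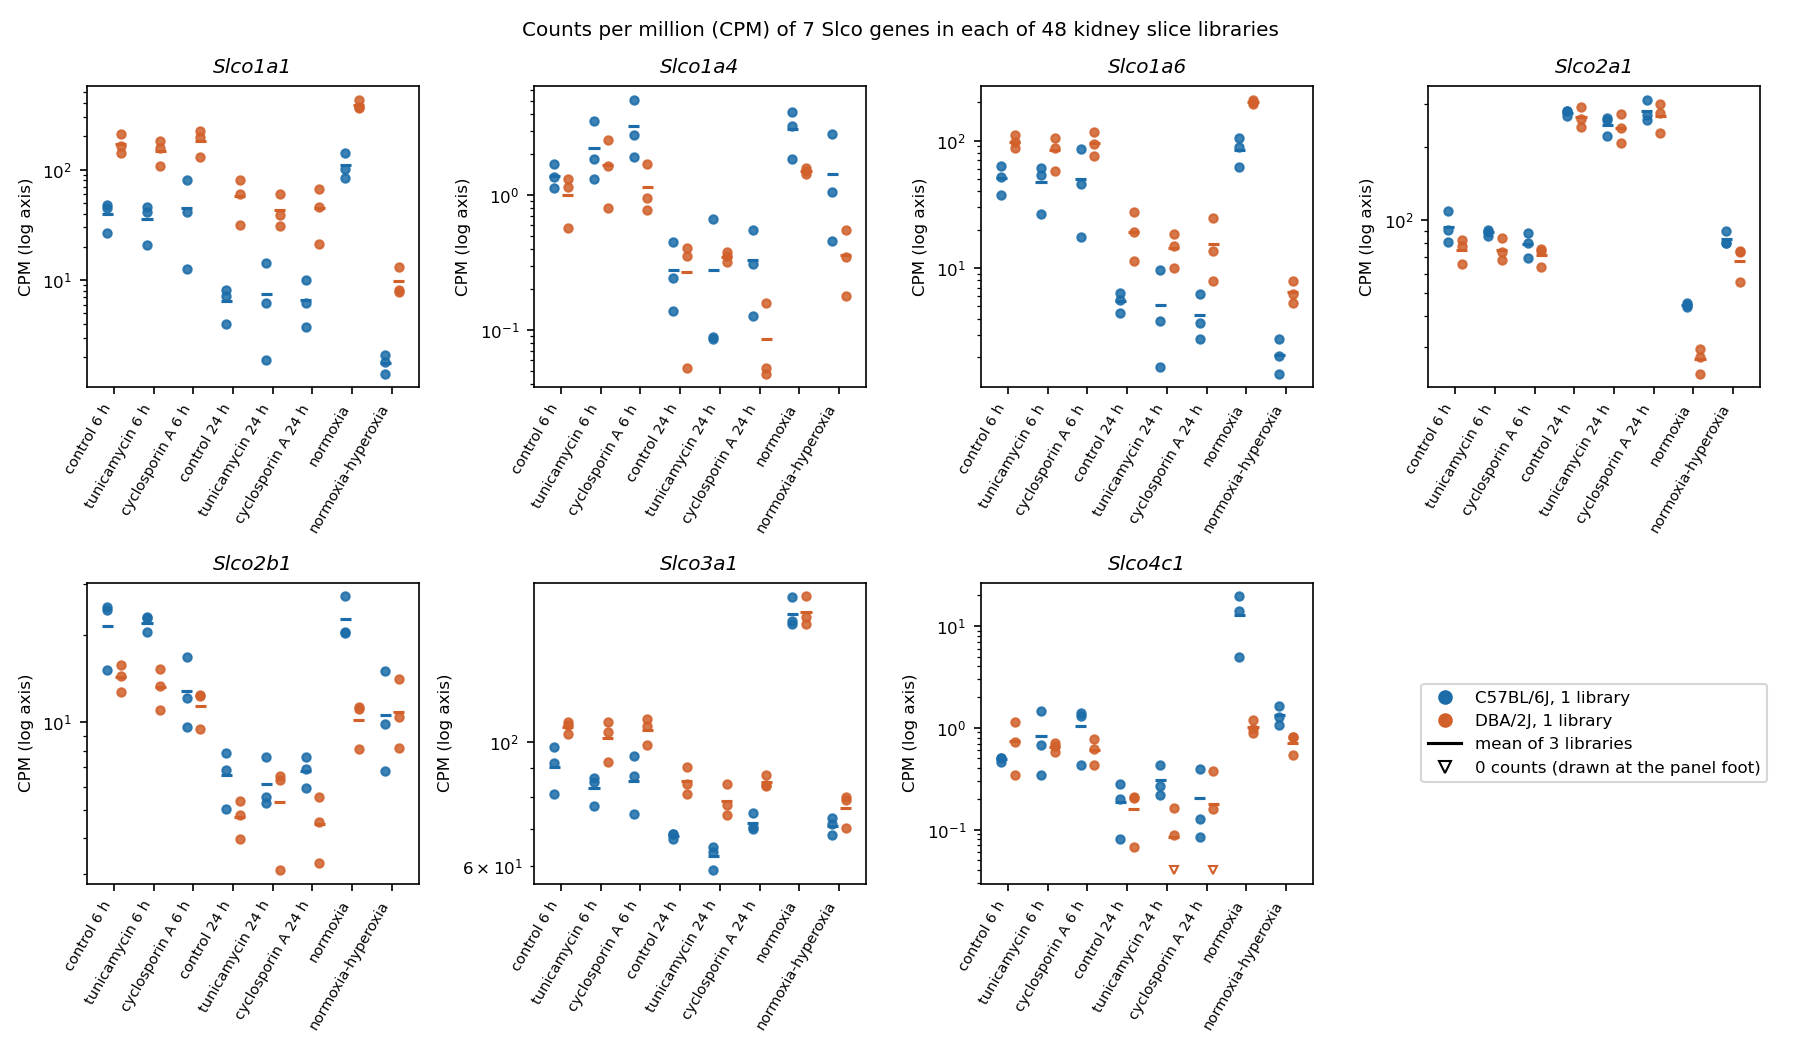
Levels in CPM (log axis) of the 7 Slco genes in each of the 48 libraries, by condition, with C57BL/6J in blue and DBA/2J in orange; points are libraries, bars are means of 3 libraries, and open triangles are libraries with 0 counts. Slco1a1 and Slco1a6 were highest under normoxia and lowest under normoxia-hyperoxia in both strains, and Slco2a1 was highest in the 24 h control and drug groups.

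Slco1a1 ranged in C57BL/6J from a mean of 1.79 CPM under normoxia-hyperoxia to 109.5 CPM under normoxia, and in DBA/2J it ran from 9.76 to 385.2 CPM between the same conditions. Ordered over all 16 groups, Slco1a1 was highest in DBA/2J under normoxia, apart from every other group. It was next highest in the DBA/2J slices at 6 h, where control, tunicamycin and cyclosporin A overlapped, and lowest in C57BL/6J under normoxia-hyperoxia (1.43 to 2.12 CPM), overlapping C57BL/6J with tunicamycin at 24 h (1.91 to 14.2 CPM). Slco1a6 had the same group at the top, 201.3 CPM in DBA/2J under normoxia, and the same at the bottom, 2.1 CPM in C57BL/6J under normoxia-hyperoxia. Slco2a1 ran the other way: its 6 highest groups were all the control and drug groups at 24 h, with means of 240.6 to 281.4 CPM that overlapped, and its lowest was DBA/2J under normoxia at 26.5 CPM. Slco3a1 was highest under normoxia in both strains, at 169.9 and 171.1 CPM, and its other groups lay between 62.6 and 106.6 CPM. Neighbours in such an order mostly overlapped: for Slco1a1 11 of 15 neighbouring pairs did, for Slco1a6 and Slco2a1 12, for Slco3a1 and Slco4c1 13, and for Slco1a4 and Slco2b1 14.

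Time in culture was read from the controls, 24 h against 6 h, a comparison in which the agents and oxygen settings play no part. Carriers of the Slco1a group and Slco2b1 fell steeply, Slco3a1 fell less, and the prostaglandin transporter Slco2a1 rose. Slco1a1 read 47.5, 26.9 and 44.8 CPM in the C57BL/6J libraries at 6 h and 7.22, 4.03 and 8.16 CPM at 24 h. In DBA/2J it read 140.9, 164.3 and 211.0 CPM at 6 h and 80.1, 31.5 and 60.4 CPM at 24 h. Every 24 h library of a strain was below every 6 h library of that strain. The change averaged over the strains was -2.33 on the log2 scale (SE 0.255, adjusted p = 6.41e-06, edgeR quasi-likelihood test with Benjamini-Hochberg adjustment, as for all adjusted p-values here). Fold changes come from that test, which rescales the libraries by trimmed means (TMM), so they differ somewhat from ratios of CPM.

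Slco1a6 read 63.6, 37.2 and 52.0 CPM at 6 h and 4.48, 5.66 and 6.38 CPM at 24 h in C57BL/6J. In DBA/2J the values were 86.9, 96.5 and 109.9 CPM at 6 h and 27.3, 11.3 and 19.3 CPM at 24 h. The groups did not overlap in either strain, and the fall, -2.99 on the log2 scale (SE 0.21, adjusted p = 1.26e-07), was 11.2-fold for C57BL/6J and 5.63-fold for DBA/2J. Slco2a1 read 81.2, 108.8 and 90.7 CPM at 6 h and 269.9, 281.1 and 281.4 CPM at 24 h in C57BL/6J. In DBA/2J it read 82.5, 65.5 and 77.9 CPM at 6 h and 292.2, 241.7 and 262.2 CPM at 24 h. All 6 of the 24 h libraries stood above all 6 of the 6 h libraries, a rise of 1.48 (SE 0.0883, adjusted p = 2.29e-09), or 2.45-fold for C57BL/6J and 3.17-fold for DBA/2J.

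Slco2b1 fell, averaging 21.5 ± 5.55 CPM at 6 h and 6.57 ± 1.42 CPM at 24 h in C57BL/6J, and in DBA/2J 14.3 ± 1.54 and 4.71 ± 0.706 CPM (SD, n = 3), a log2 change of -1.88 (adjusted p = 2.82e-08). Slco3a1 changed least, from 90.3 ± 8.67 to 68.1 ± 0.802 CPM in C57BL/6J, and in DBA/2J from 106.6 ± 2.67 to 85.2 ± 4.93 CPM (SD, n = 3), with a log2 change of -0.58 (adjusted p = 4.72e-07). The low level of Slco1a4 fell further, from 1.39 ± 0.296 to 0.276 ± 0.157 CPM in C57BL/6J, and in DBA/2J from 1.01 ± 0.394 to 0.271 ± 0.191 CPM (SD, n = 3). Its log2 change of -2.32 (adjusted p = 7.2e-05) rests on as few as 1 count in a 24 h library. Slco1a4 passed the filter on low counts through its 6 h libraries, so its direction is not independent of that filter. Slco4c1, with at most 22 counts in a control library, did not pass the filter on low counts and was not tested here. Of the 6 members tested, 6 passed, with 1 higher and 5 lower. Over all 16962 genes tested, 72.0% passed, 34.7% higher and 37.4% lower. The median log2 change of the 6 was -2.1 against -0.02 for all genes. No member passed the test of a different change between the strains, while 2 had an unadjusted p under 0.05 (Slco1a1 and Slco1a6, both with the larger fall in C57BL/6J). Over all genes 0.69% passed that test, or 117 genes, and 46 to 226 when a library was left out.

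Marker genes of most kidney cell types fell in the same comparison, with 4 of 4 for the loop of Henle and distal tubule, 6 of 6 for the collecting duct, 4 of 4 for podocytes and 7 of 10 for endothelium. The mitochondrial share of counts also went down, from 14.81%-16.3% to 5.96%-7.87% in C57BL/6J, and in DBA/2J from 8.05%-8.32% to 3.39%-3.6%. All 9 of 9 proximal tubule markers fell, with a median log2 change of -2.67, and their summed level went from 3317.1-6491.7 to 529.3-833.7 CPM in C57BL/6J, and in DBA/2J from 7340.1-8680.0 to 1198.3-2452.1 CPM. The part of these markers and of the mitochondrial share in the result was not tested, and in bulk slices fewer cells of a type and less RNA per cell cannot be told apart. As a description added after the values were seen, Slco1a1 and Slco1a6 were also expressed as a percentage of that marker sum in each library. Slco1a1 stood at 0.79% ± 0.0509 of the sum at 6 h and 0.964% ± 0.445 at 24 h in C57BL/6J, and at 2.19% ± 0.269 and 2.93% ± 0.319 in DBA/2J (SD, n = 3). In C57BL/6J the percentages of the time points overlapped, and in DBA/2J the 24 h values were the higher. Slco1a6 stood at 1.02% ± 0.088 and 0.781% ± 0.0897 in C57BL/6J and at 1.25% ± 0.0727 and 0.995% ± 0.102 in DBA/2J, lower at 24 h in both strains without overlap.

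**Figure D2:**
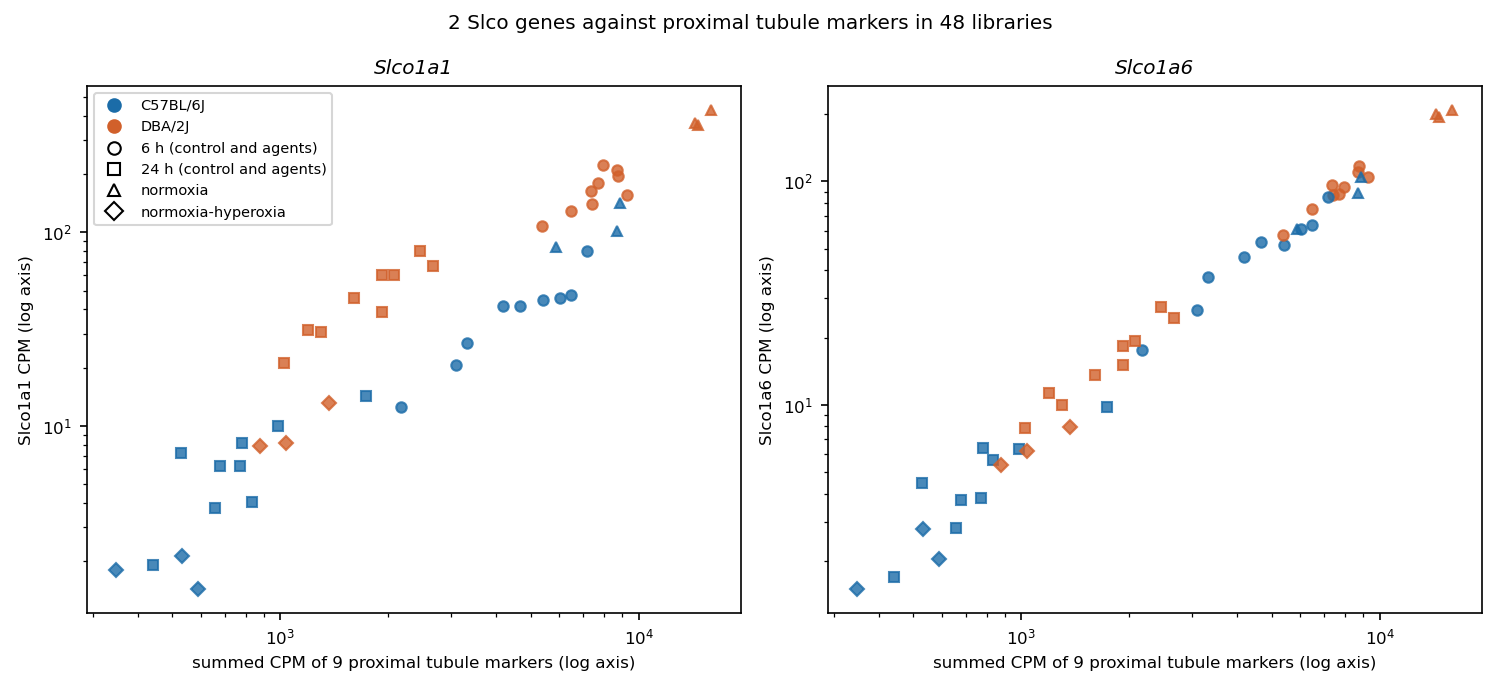
Slco1a1 (left) and Slco1a6 (right), in CPM, against the summed CPM of 9 proximal tubule markers in each of 48 libraries, with log axes, colour for strain and symbol for condition. Within each condition the ratio of Slco1a1 to the marker sum is higher in every DBA/2J library than in every C57BL/6J library, and in both strains the mean ratio of either gene is lowest under normoxia-hyperoxia.

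Normoxia against the 24 h controls changed all 7 genes, 6 higher and the prostaglandin transporter lower. Slco1a4 and Slco4c1 were too low in the 24 h controls for the filter on low counts. Both were tested only through their normoxia libraries, so their direction is not independent of that filter. Slco1a1 read 142.3, 84.0 and 102.2 CPM under normoxia in C57BL/6J slices and 366.8, 359.6 and 429.3 CPM in those of DBA/2J. These stood above every 24 h control of the same strain, by 20.2-fold and 8.45-fold, with a mean log2 change of 3.71 (SE 0.266, adjusted p = 3.16e-07). Slco1a6 read 104.6, 61.5 and 88.3 CPM in C57BL/6J slices and 201.2, 193.8 and 208.9 CPM in those of DBA/2J, 18.2-fold and 13.1-fold above the controls, again without overlap (log2 change 3.95, SE 0.22, adjusted p = 2.25e-08). The group means of both carriers were also above those of the 6 h controls, a difference that was not tested.

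Slco2a1 read 45.3, 44.4 and 43.8 CPM in C57BL/6J slices and 23.2, 27.1 and 29.3 CPM in those of DBA/2J under normoxia. It was 5.36-fold and 7.97-fold lower than in the 24 h controls (log2 change -2.71, SE 0.0633, adjusted p = 4.52e-15), and every normoxia library stood below every 24 h control. The strains differed in the size of that fall, by -0.57 on the log2 scale (SE 0.12, adjusted p = 0.00517), with the larger fall in DBA/2J. Slco3a1 read 181.8, 162.8 and 165.2 CPM in C57BL/6J slices and 167.4, 163.2 and 182.7 CPM in those of DBA/2J, higher by 2.9-fold and 2.52-fold (log2 change 1.44, SE 0.0535, adjusted p = 7.56e-13). Slco2b1 read 20.5, 27.2 and 20.3 CPM in C57BL/6J slices and 8.11, 11.3 and 11.1 CPM in those of DBA/2J, higher by 4.04-fold and 2.7-fold (log2 change 1.72, SE 0.129, adjusted p = 3.48e-09).

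Slco4c1, the basolateral carrier of uremic solutes, was the member whose level under normoxia differed most between the strains. It held 113, 395 and 276 counts in the C57BL/6J normoxia libraries, or 4.94, 19.6 and 14.1 CPM, and 24, 17 and 28 counts in DBA/2J, or 0.983, 0.886 and 1.18 CPM. The 24 h controls held 4, 6 and 1 counts in C57BL/6J and 4, 4 and 1 in DBA/2J. The log2 change over both strains, in a test entered through the normoxia libraries, was 4.52 (SE 0.469, adjusted p = 1.03e-06). The difference of this change between the strains was -3.26 (SE 1.29) and did not pass (adjusted p = 0.104), while DESeq2 gave -3.31 with an adjusted p of 0.00276. This strain difference also passed with no filter (-3.25, adjusted p = 0.000378), the replicate block (-3.24, 0.021) and all 48 libraries in a common fit (-3.35, 0.0321). Without replicate 1 of C57BL/6J under normoxia it was -3.65 (adjusted p = 0.00403). Slco1a4 read 1.84, 4.16 and 3.26 CPM in C57BL/6J slices and 1.43, 1.51 and 1.6 CPM in those of DBA/2J, above all 24 h controls (log2 change 3.24, SE 0.345, adjusted p = 2.69e-07).

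Of all 17375 genes tested for normoxia, 82.0% passed, 42.4% higher and 39.7% lower, so a pass of 7 of 7 members stands near the background, and the median log2 change of the members was 3.24 against 0.05. The member median is the value of Slco1a4, which like Slco4c1 entered the test through its normoxia libraries. The strain difference of the change passed for 1 of 7 members (Slco2a1) and for 17% of all genes. The 9 proximal tubule markers all rose, with a median log2 change of 3.65, and summed to 5883.8-8875.0 CPM in C57BL/6J slices and 14374.6-15946.0 CPM in those of DBA/2J under normoxia. Their part in the result was not tested. Relative to that sum, Slco1a1 stood at 1.4% ± 0.214 in C57BL/6J and 2.57% ± 0.119 in DBA/2J, and Slco1a6 at 1.08% ± 0.0861 and 1.34% ± 0.0482 (SD, n = 3). Markers of other cells moved too, with 4 of 4 higher for the loop of Henle and distal tubule, 5 of 6 higher for the collecting duct, 5 of 8 higher and 2 lower for leukocytes, 3 of 4 lower for podocytes and 2 of 7 lower for fibroblasts and pericytes. Of 10 markers of endothelium, cells in which Slco2a1 and Slco2b1 are also known, 5 rose and 3 fell, and they summed to 1305.9-1814.5 CPM in C57BL/6J against 1501.8-1963.2 CPM in the 24 h controls. In DBA/2J the endothelial markers summed to 664.5-1116.1 CPM against 927.6-1447.5 CPM. Their part in the Slco2a1 result was not tested. The mitochondrial share of counts also differed, 22.77% to 25.65% against 5.96% to 7.87% in C57BL/6J and 11.77% to 12.83% against 3.39% to 3.6% in DBA/2J, and its part in the result was not tested.

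After hyperoxia the pattern turned over for the proximal tubule carriers. Under normoxia-hyperoxia Slco1a1 read 1.81, 1.43 and 2.12 CPM in C57BL/6J slices and 13.2, 8.19 and 7.87 CPM in those of DBA/2J. Slco1a6 read 1.49, 2.03 and 2.77 CPM in C57BL/6J slices and 7.98, 6.23 and 5.37 CPM in those of DBA/2J. These were the lowest levels of either gene in each strain by group mean. Against normoxia, Slco1a1 was lower by 62.2-fold for C57BL/6J and 43.3-fold for DBA/2J (log2 change -5.70, adjusted p = 7.41e-11) and Slco1a6 by 40.5-fold and 34.5-fold (log2 change -5.22, adjusted p = 5.02e-11). Against the 24 h controls the log2 changes were -2.01 for Slco1a1 (adjusted p = 6.04e-05) and -1.30 for Slco1a6 (adjusted p = 0.000147), with no overlap in either strain. These comparisons share libraries with each other and with normoxia against the 24 h controls, and the 24 h controls also enter the comparison of times, so their values are not independent.

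Slco2a1 read 90.0, 80.4 and 80.2 CPM in C57BL/6J slices and 55.5, 74.4 and 74.0 CPM in those of DBA/2J. It stood between the other arms, above every normoxia library (log2 change 1.04, adjusted p = 5.42e-09) and below every 24 h control (log2 change -1.68, adjusted p = 1.16e-10). Slco3a1 read 68.2, 71.5 and 73.3 CPM in C57BL/6J slices and 70.2, 79.0 and 79.7 CPM in those of DBA/2J, lower than under normoxia (log2 change -1.30, adjusted p = 1.94e-11). Against the 24 h controls its log2 difference was 0.12 (SE 0.0511) and did not pass (adjusted p = 0.0505). It passed at the same size, 0.14 and 0.13, with DESeq2's scaling and with DESeq2 itself (adjusted p = 0.0272 and 0.0334), so this small difference sits at the threshold. In C57BL/6J alone Slco3a1 passed as higher than the 24 h controls, but not with library totals alone (0.06, adjusted p = 0.514) or no filter (0.26, 0.0569). In CPM, which is not rescaled, the DBA/2J libraries lay below their 24 h controls without overlap.

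Slco2b1 read 6.81, 15 and 9.88 CPM in C57BL/6J slices and 14.1, 8.19 and 10.4 CPM in those of DBA/2J. It stood above the 24 h controls by 1.15 on the log2 scale (adjusted p = 0.00017). Against normoxia it was lower in C57BL/6J (log2 change -1.09, adjusted p = 0.00317), and in DBA/2J the value was -0.01 (adjusted p = 0.969). The difference between the strains was 1.07 (SE 0.381) and did not pass (adjusted p = 0.0729), while DESeq2, with 1.08 (adjusted p = 0.0258), library totals alone, with 1.24 (0.0473), all 48 libraries in a common fit, with 1.16 (0.0259), and the fit with no filter, with 1.14 (1.3e-06), all passed it. Over both strains the change against normoxia was -0.55 (adjusted p = 0.0205), and without DBA/2J replicate 3 of normoxia-hyperoxia it was -0.53 (adjusted p = 0.0504). Slco4c1 read 1.28, 1.63 and 1.06 CPM in C57BL/6J slices and 0.804, 0.534 and 0.803 CPM in those of DBA/2J, or 14, 3 and 16 counts in DBA/2J. It stood above the 24 h controls in both strains (log2 change 2.58, adjusted p = 9e-06) and below normoxia (log2 change -1.92, adjusted p = 0.000233), though the DBA/2J change alone did not pass (adjusted p = 0.374).

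The fall of Slco4c1 from normoxia differed between the strains by 2.66 on the log2 scale (SE 0.728, adjusted p = 0.0245), being 9.53-fold in C57BL/6J against 1.51-fold in DBA/2J. It did not pass when any of 6 of the 12 libraries was omitted, with adjusted p-values of 0.0543 to 0.0964 and differences of 2.54 to 2.67. Slco1a4 read 1.06, 2.82 and 0.454 CPM in C57BL/6J slices and 0.345, 0.178 and 0.552 CPM in those of DBA/2J, where 6, 1 and 11 counts stood behind the values. Its rise over the 24 h controls, which passed in C57BL/6J and not in DBA/2J alone (adjusted p = 0.006 and 0.472), was 1.67 over both strains (SE 0.562, adjusted p = 0.0165). It was 1.17 without replicate 2 of C57BL/6J (adjusted p = 0.0543) and 1.45 without replicate 3 of DBA/2J (adjusted p = 0.0814). Against normoxia Slco1a4 was lower (log2 change -1.54, adjusted p = 0.0033). The C57BL/6J change alone did not pass and the libraries overlapped, though it passed with no filter (-1.07, adjusted p = 0.00232) and the replicate block (-1.2, 0.0167). That of DBA/2J passed, but not without its replicate 1 of normoxia-hyperoxia (-1.91, adjusted p = 0.0544).

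Against the 24 h controls 6 of 7 members passed, 3 higher and 3 lower, where 68.2% of 17256 genes passed (34.1% higher and 34.1% lower). Of the 3 higher, Slco1a4 and Slco4c1 were too low in the 24 h controls for the filter and entered through their normoxia-hyperoxia libraries. Against normoxia 7 of 7 passed, 1 higher and 6 lower, where 73.5% of 17228 genes passed (37% higher and 36.5% lower). Strain differences of the change passed for 0 members and 1.43% of genes against the 24 h controls, with 1 member (Slco3a1) at an unadjusted p under 0.05. That share rests on 247 genes, 103 to 524 when a library was left out. Against normoxia the strain difference passed for 1 member (Slco4c1) and 18.2% of genes. Of the 9 proximal tubule markers, 9 were lower than under normoxia, and 5 were lower and 1 higher than in the 24 h controls. They summed to 348.9-589.6 CPM in C57BL/6J slices and 877.5-1363.8 CPM in those of DBA/2J, and their part in the result was not tested. Relative to that sum Slco1a1 stood at 0.387% ± 0.138 in C57BL/6J and 0.885% ± 0.0907 in DBA/2J, and Slco1a6 at 0.431% ± 0.0894 and 0.599% ± 0.0131 (SD, n = 3). The Slco1a6 percentages were below those of the 24 h controls and of normoxia in both strains without overlap. Those of Slco1a1 were below too, except that in C57BL/6J they overlapped the 24 h controls (0.243% to 0.519% against 0.484% to 1.36%). Markers of other cells were higher than in the 24 h controls, with 4 of 4 for the loop of Henle and distal tubule, 6 of 6 for the collecting duct, 3 of 4 for podocytes, 7 of 10 for endothelium and 7 of 8 for leukocytes. Against normoxia 9 of 10 were higher for endothelium, 4 of 4 for podocytes, 6 of 8 for leukocytes, 5 of 6 for the collecting duct, 5 of 7 for fibroblasts and pericytes and 2 of 4 for the loop of Henle and distal tubule. The mitochondrial share of counts was 12.15% to 16.64% in C57BL/6J, below normoxia and above the 24 h controls, and 10.98% to 17.36% in DBA/2J, above the 24 h controls and overlapping normoxia (11.77% to 12.83%). The part of these values in the results was not tested.

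**Figure D3:**
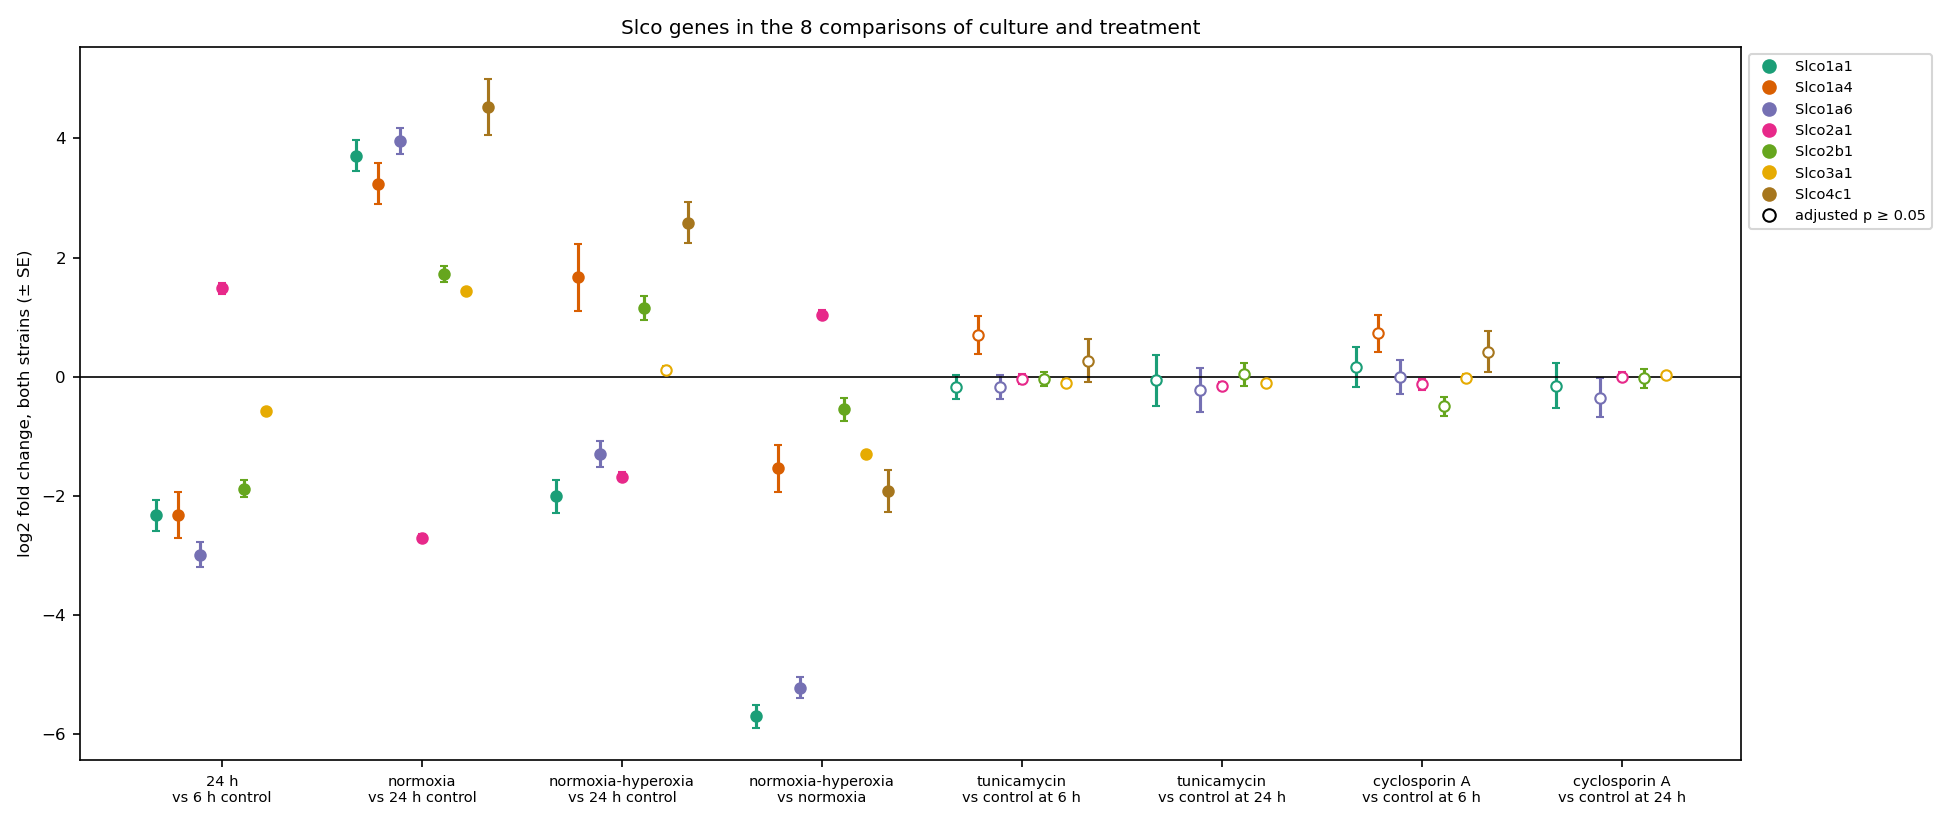
Log2 fold changes of the 7 Slco genes averaged over both strains, with SE bars, in 8 comparisons; filled points passed an adjusted p of 0.05 and open points did not. Slco1a1 and Slco1a6 lay at 3.71 and 3.95 under normoxia and at -5.70 and -5.22 in normoxia-hyperoxia against normoxia, and all points of the tunicamycin and cyclosporin A comparisons were open.

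Neither agent gave a member past the threshold at either time. With tunicamycin at 6 h the log2 differences of the 7 genes ran from -0.18 (Slco1a1) to 0.70 (Slco1a4). Slco1a1 read 41.7, 20.7 and 45.6 CPM with tunicamycin at 6 h in C57BL/6J slices and 155.5, 107.8 and 180.3 CPM in those of DBA/2J, overlapping the controls in both strains. The single unadjusted p under 0.05 was that of Slco1a4 (0.0496, adjusted p = 1.0), and 0.0% of the 16551 genes tested passed. At 24 h the 5 members tested ran from -0.23 (Slco1a6) to 0.04 (Slco2b1). Slco2a1 at -0.15 (SE 0.0685) and Slco3a1 at -0.11 (SE 0.0512) had unadjusted p-values of 0.049 and 0.0447 and adjusted values of 0.387 and 0.372, where 1.38% of 16905 genes passed. Slco2a1 read 257.6, 263.1 and 221.8 CPM with tunicamycin in C57BL/6J slices and 240.1, 272.8 and 208.8 CPM in those of DBA/2J, overlapping the DBA/2J controls and below each C57BL/6J control.

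With cyclosporin A at 6 h the member nearest to the threshold was Slco2b1, which read 9.61, 16.8 and 12.1 CPM in C57BL/6J against 24.4, 15.1 and 25.0 CPM in the controls. In DBA/2J it read 9.46, 12.3 and 12.4 CPM against 15.8, 12.7 and 14.4 CPM. The log2 difference was -0.50 (SE 0.155, unadjusted p = 0.00661, adjusted p = 0.754), with overlap in C57BL/6J and none in DBA/2J. Slco1a4 also had an unadjusted p under 0.05 (0.0348) at a difference of 0.73 (SE 0.308, adjusted p = 1.0), with no overlap in C57BL/6J, and 0.0% of 16538 genes passed. At 24 h differences ran from -0.35 (Slco1a6, SE 0.326) to 0.02 (Slco3a1, SE 0.0469), with 0 unadjusted p-values under 0.05 among 5 members and 0.0% of 16887 genes passing. The widest error was that of Slco1a1 with tunicamycin at 24 h, -0.06 with an SE of 0.424, so a moderate change of that gene was not detectable with these libraries. DESeq2 also called 0 members in each of the 4 drug comparisons. No member passed a test of a strain difference in a drug effect, nor had an unadjusted p under 0.05 there, and 0.0% of all genes passed in each of these 4 tests. Slco1a4 and Slco4c1 were too low at 24 h to be tested, and replicate 1 of DBA/2J held 0 counts of Slco4c1 with either agent, which allows up to 0.137 CPM with tunicamycin and 0.157 CPM with cyclosporin A (3 counts, counting error only).

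DBA/2J slices had more Slco1a1 and Slco1a6 than C57BL/6J slices in each of the 4 conditions compared. Reads of both strains were aligned to the same reference, GRCm38. The part of sequence differences between the strains in these and the other strain differences was not tested. For Slco1a1 the DBA/2J level was 3.92-fold higher in 6 h controls (adjusted p = 0.00157), 8.88-fold in 24 h controls (adjusted p = 0.000179), 3.68-fold under normoxia (adjusted p = 2.33e-05) and 5.29-fold under normoxia-hyperoxia (adjusted p = 0.000175). Every DBA/2J library stood above every C57BL/6J library of the same condition. Slco1a6 was 1.74-fold, 3.47-fold, 2.49-fold and 2.92-fold higher in the same order (adjusted p = 0.0438, 0.00174, 0.000137 and 0.00233), also without overlap in any of them. The 6 h difference of Slco1a6 was weak, 0.80 on the log2 scale, and did not pass when any of 9 of the 12 libraries was omitted, for example 0.65 (adjusted p = 0.14) without replicate 2 of the C57BL/6J controls and 0.70 (adjusted p = 0.137) without replicate 3 of the DBA/2J controls. With all 48 libraries in a common fit, the Slco1a6 difference was 0.78 in 6 h controls (adjusted p = 0.179) and 1.56 under normoxia-hyperoxia (adjusted p = 0.0591).

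The proximal tubule marker sum was also higher in DBA/2J in each of these conditions without overlap. As a percentage of that sum, Slco1a1 was also higher in DBA/2J in all 4 conditions without overlap, from 0.732%-0.827% against 1.9%-2.43% in 6 h controls to 1.18%-1.6% against 2.46%-2.69% under normoxia. For Slco1a6 the percentages were nearer, 0.96%-1.12% against 1.17%-1.31% in 6 h controls and 1.02%-1.18% against 1.31%-1.4% under normoxia. They did not overlap in the other conditions either. No test was made of these percentages, and the part of the markers in the strain differences was not tested. Slc34a1 had the highest count of the 9 markers (mean 38309.4 per library). The sum also holds Slc22a6, which is among the genes most like Slco1a1.

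Slco2a1 went the other way in 3 of the 4 conditions, lower in DBA/2J with log2 differences of -0.46 in 6 h controls (adjusted p = 0.0135), -0.68 under normoxia (adjusted p = 0.000137) and -0.40 under normoxia-hyperoxia (adjusted p = 0.0112). In 24 h controls the difference was -0.09 (adjusted p = 0.634). With library totals alone the Slco2a1 differences in 6 h controls and under normoxia-hyperoxia were -0.31 (adjusted p = 0.055) and -0.30 (0.0587). The 6 h difference was -0.30 without replicate 2 of the C57BL/6J controls (adjusted p = 0.0577) and -0.38 without replicate 2 of the DBA/2J controls (adjusted p = 0.0632), and the normoxia-hyperoxia difference was -0.28 without DBA/2J replicate 1 (adjusted p = 0.057) and -0.34 without replicate 1 of C57BL/6J (adjusted p = 0.0524). Slco2b1 was lower in DBA/2J with log2 differences of -0.73 in 6 h controls (adjusted p = 0.0107), or -0.60 without replicate 3 of the C57BL/6J controls (adjusted p = 0.0634), and -1.09 under normoxia (adjusted p = 0.00505). In 24 h controls the Slco2b1 difference was -0.50 and did not pass (adjusted p = 0.119), though it was -0.55 with no filter (0.0204) and -0.53 without replicate 2 of the C57BL/6J 6 h controls (0.0364). It differed by -0.02 under normoxia-hyperoxia (adjusted p = 0.972). The summed endothelial markers were also lower in DBA/2J without overlap in 6 h controls (1539.2-2056.3 against 2323.2-2867.7 CPM), 24 h controls (927.6-1447.5 against 1501.8-1963.2 CPM) and normoxia (664.5-1116.1 against 1305.9-1814.5 CPM), and overlapped under normoxia-hyperoxia. The mitochondrial share was lower in DBA/2J in 6 h controls (8.05%-8.32% against 14.81%-16.3%), 24 h controls and normoxia, and overlapped under normoxia-hyperoxia. Their part in the strain differences was not tested.

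For Slco3a1 the strain differences were 0.09, 0.29, 0.08 and 0.01 in 6 h controls, 24 h controls, normoxia and normoxia-hyperoxia. That in 24 h controls passed (SE 0.0828, adjusted p = 0.0194) and did not when any of 6 of the 12 libraries was omitted, with adjusted p-values of 0.0506 to 0.0886. In CPM the Slco3a1 levels of the strains did not overlap in either control, and with library totals alone the 6 h difference was 0.24 (adjusted p = 0.0415). Slco4c1 was 11.8-fold lower in DBA/2J under normoxia (log2 difference -3.57, SE 0.424, adjusted p = 2.74e-05), and -0.90 under normoxia-hyperoxia did not pass (adjusted p = 0.258). The normoxia-hyperoxia difference of Slco4c1 passed with no filter (-0.93, adjusted p = 0.0291) and without replicate 1 of C57BL/6J under normoxia (-0.91, 0.0382). Slco1a4 passed under normoxia-hyperoxia at -1.95 (adjusted p = 0.0396), which did not pass when any of 8 of the 12 libraries was omitted and was -0.95 without replicate 2 of C57BL/6J (adjusted p = 0.224). In all, 4 of 6 members passed in 6 h controls (2 higher in DBA/2J), 3 of 6 in 24 h controls (3 higher), 5 of 7 under normoxia (2 higher) and 4 of 7 under normoxia-hyperoxia (2 higher). Over all genes 26.2%, 22.2%, 46.8% and 25.7% passed in the same order.

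**Figure D4:**
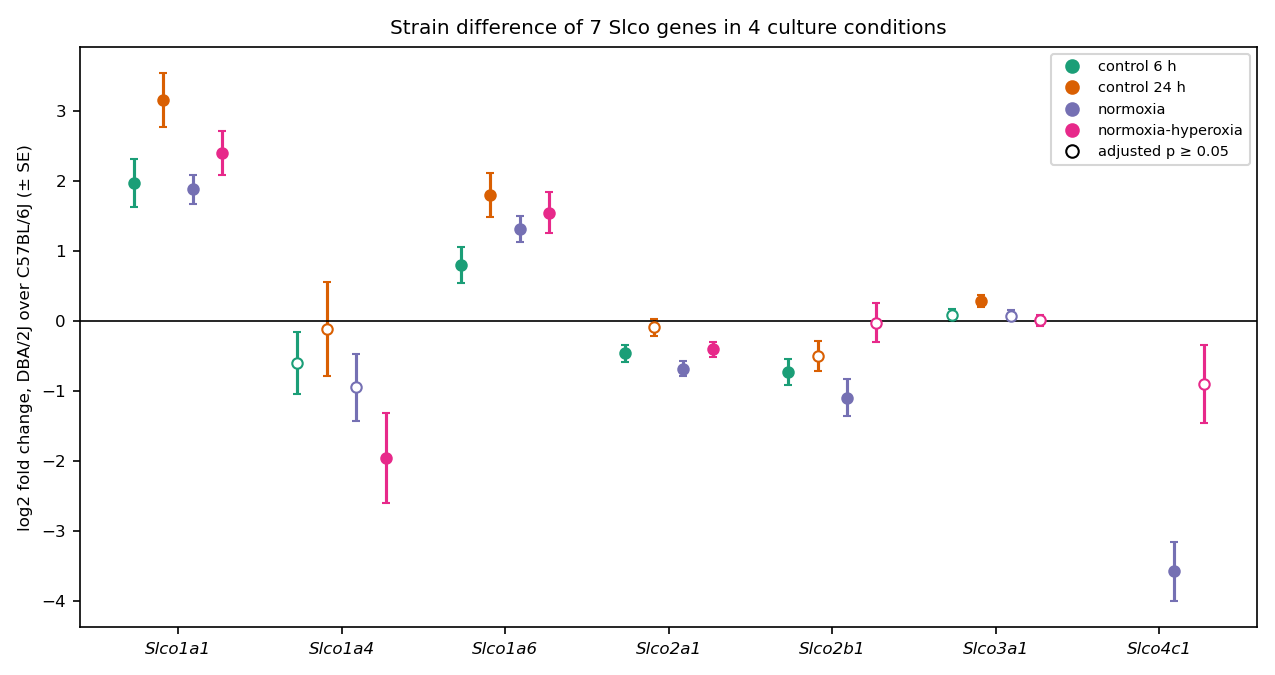
Log2 fold change of DBA/2J over C57BL/6J for the 7 Slco genes in 4 conditions, with SE bars; filled points passed an adjusted p of 0.05. Slco1a1 and Slco1a6 lie above 0 in all 4 conditions, Slco3a1 lies close to 0, and Slco4c1 under normoxia lies at -3.57.

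Of 10 other Slco genes listed, 8 were found, and Slco4a1, a carrier of thyroid hormone and prostaglandins, was the only such gene with a mean count of 10 or more. It read 12.3, 16.9 and 17 CPM under normoxia in C57BL/6J slices and 4.79, 4.79 and 5.21 CPM in those of DBA/2J. Under normoxia-hyperoxia it read 90.6, 88.0 and 77.5 CPM and 113.4, 152.2 and 178.7 CPM. The groups did not overlap, and the rise of 3.60 on the log2 scale (SE 0.119, adjusted p = 6.23e-12) was opposite in sign to that of Slco1a1 and Slco1a6. This rise differed between the strains by 2.26 (SE 0.229, adjusted p = 9.91e-05), with the larger rise in DBA/2J.

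The make-up of the family was compared with each gene taken per length as a share of the summed CPM/kb of all Slco genes found. In C57BL/6J 6 h controls Slco1a6 held 25.19% of the sum, Slco3a1 and Slco4a1 20.11% each, Slco1a1 14.17% and Slco2a1 12.99%. In 24 h controls Slco2a1 held 53.07%, under normoxia Slco1a6, Slco1a1 and Slco3a1 held 29.11%, 27.15% and 26.24%, and under normoxia-hyperoxia Slco4a1 held 50.06%. In DBA/2J the leading gene was Slco1a1 in 6 h controls with 35.39%, Slco2a1 in 24 h controls with 35.62%, Slco1a1 under normoxia with 48.25% and Slco4a1 under normoxia-hyperoxia with 61.09%. These shares are group means of 3 libraries and describe RNA, not transport.

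**Figure D5:**
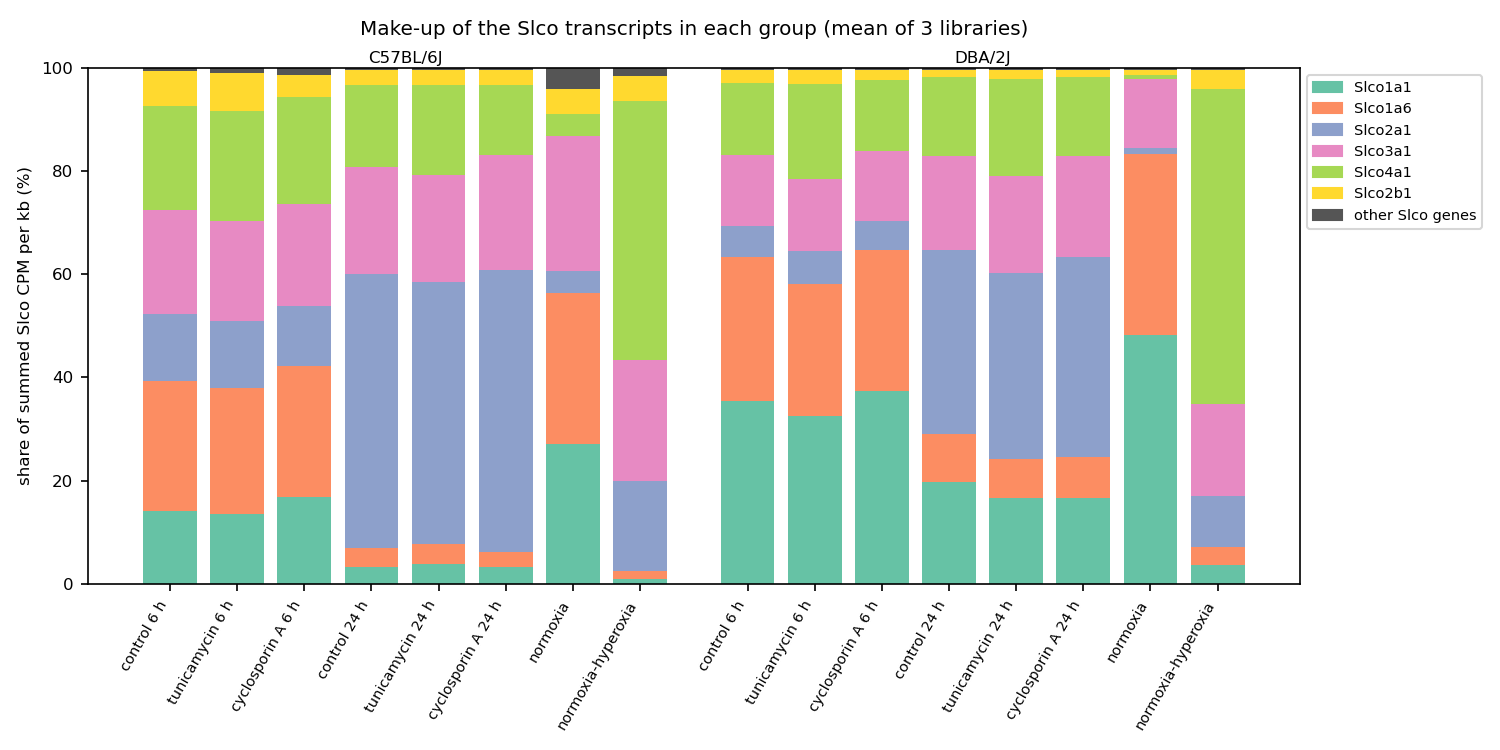
Stacked bars give each gene's share, in percent, of the summed CPM per kilobase of the Slco genes in each of the 16 groups, as means of 3 libraries. Slco2a1 is the widest band in the 24 h control and drug groups (53.07% in C57BL/6J controls), and Slco4a1 is the widest under normoxia-hyperoxia (50.06% and 61.09%).

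Other carriers of organic anions in the tubule moved with Slco1a1 and Slco1a6 in number. Of 20 listed, 14 fell and 5 rose from 6 h to 24 h (median log2 change -2.08), 15 rose and 5 fell under normoxia against 24 h controls (median 3.43), and 15 fell and 3 rose in normoxia-hyperoxia against normoxia (median -4.16). Against the 24 h controls, normoxia-hyperoxia had 14 of 19 tested lower and 1 higher (median -1.07). The medians of all genes in these comparisons lay between -0.02 and 0.05. Of all genes, 72.0% passed for 24 h against 6 h (34.7% higher, 37.4% lower), 82.0% for normoxia (42.4% higher, 39.7% lower), 68.2% for normoxia-hyperoxia against the 24 h controls (34.1% each way) and 73.5% against normoxia (37% higher, 36.5% lower), and the counts of this and the following lists are to be read against these shares. Slc22a6, the basolateral uptake carrier for organic anions, fell by 5.26 on the log2 scale from normoxia to normoxia-hyperoxia (adjusted p = 8.07e-12). The efflux pumps Abcc1 and Abcc3 were among the exceptions, lower under normoxia with log2 changes of -3.42 and -3.15 (adjusted p = 1.43e-11 and 3.55e-10), as Slco2a1 was. Abcc4, an efflux pump that exports prostaglandins, rose by 2.40 from 6 h to 24 h (adjusted p = 2.53e-11).

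Genes of prostaglandin synthesis, breakdown and reception showed mixed directions, with 5 of 17 higher and 9 lower at 24 h (median -0.51, beside 34.7% and 37.4% of all genes), 7 higher and 10 lower under normoxia (median -0.39, beside 42.4% and 39.7%), 8 higher and 5 lower in normoxia-hyperoxia against the 24 h controls (median 0.07), and 10 of 16 higher and 4 lower against normoxia (median 0.52). Ptgs2, the inducible cyclooxygenase, rose by 2.08 from 6 h to 24 h (adjusted p = 8.1e-07) and was lower under normoxia with a change of -7.39 (adjusted p = 4.67e-12), the same signs as Slco2a1. Against normoxia it was higher by 5.21 under normoxia-hyperoxia (adjusted p = 1.05e-12). Hpgd, which breaks prostaglandins down inside the cell, fell by 2.04 from 6 h to 24 h (adjusted p = 1.52e-06), opposite to Slco2a1.

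Of the genes of thyroid hormone transport and activation, 7 of 9 tested fell and 1 rose at 24 h (37.4% and 34.7% of all genes), 7 rose and 2 fell under normoxia (42.4% and 39.7%), and 5 fell and 2 rose in normoxia-hyperoxia against normoxia. Under normoxia-hyperoxia 5 of 10 rose and 4 fell against the 24 h controls, and with tunicamycin at 24 h 2 of 10 rose (1.38% of all genes passed), the only members of any list here that passed in a drug comparison. These were Slc7a5 and Slc3a2, the chains of an amino acid carrier that also takes up thyroid hormone, at 0.22 and 0.29 (adjusted p = 0.0469 and 0.0235), named after their values were seen. Dio1, the renal enzyme that activates thyroxine, rose under normoxia by 4.45 (adjusted p = 6.54e-12). Steroid and conjugate enzymes fell at 24 h in 11 of 12, rose under normoxia in 11 of 12 and fell in normoxia-hyperoxia against normoxia in 10 of 12. In normoxia-hyperoxia 6 of the 12 were higher and 4 lower than in the 24 h controls. Of 8 genes listed as higher in the male mouse kidney, which are known to answer to androgens as Slco1a1 does, 7 fell at 24 h and 1 rose, 7 rose under normoxia, 6 fell in normoxia-hyperoxia against the 24 h controls and 8 fell against normoxia. The 9 proximal tubule markers moved likewise, with 9 lower at 24 h, 9 higher under normoxia and 9 lower against normoxia. Against the 24 h controls 5 of them were lower and 1 higher. The part of either list in the Slco1a1 result was not tested.

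Transcription factors and receptors known to act on Slco genes fell at 24 h in 14 of 16 (37.4% of all genes), rose under normoxia in 12 with 2 lower (42.4% and 39.7%), rose in normoxia-hyperoxia against the 24 h controls in 11 with 2 lower, and against normoxia were lower in 11 and higher in 5. Hnf4a, a nuclear receptor of the proximal tubule, changed by -2.27 at 24 h (adjusted p = 1.5e-07), 3.59 under normoxia (adjusted p = 9.17e-10) and -3.00 in normoxia-hyperoxia against normoxia (adjusted p = 1.49e-09). Of 4 genes of the PDZ scaffold at the apical membrane (the scaffolds themselves and Pdzk1ip1, which binds Pdzk1), 4 fell at 24 h and 4 rose under normoxia (37.4% and 42.4% of all genes), with Pdzk1, which binds Slco1a1, at -2.34 and 3.13 (adjusted p = 2.33e-08 and 1.14e-11). Against the 24 h controls 4 of 4 were higher under normoxia-hyperoxia, and against normoxia 3 were lower and 1 higher.

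Likeness between genes was measured as Pearson's r of log2 CPM over the 48 libraries, which share condition and strain, so r mostly follows the differences between conditions and is given as a description. Slco1a1 was most like Slc22a6 (r = 0.989), Cyp2e1 (0.989) and Acsm2 (0.988), and Slco1a6 most like Cyp2j5, Abcg2 and Cubn (0.991 each). Slco2a1 was most like Flna (0.984), Emp2 (0.982) and Aldh18a1 (0.98). Slco3a1 was most like Itfg1 (0.966), Tmbim6 (0.966) and Slc16a9 (0.965), and Slco2b1 most like Tril (0.939), Pdgfd (0.926) and Heg1 (0.924). Slco1a4 and Slco4c1 were too low for this measure. Within the family Slco1a1 and Slco1a6 had an r of 0.95, Slco2a1 and Slco3a1 had -0.85, and Slco1a1 and Slco4c1 had 0.25.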

How the data were processed

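RNA was sequenced as stranded mRNA libraries per the labels' protocols, and the authors deposited raw read counts per gene, 55487 Ensembl identifiers by 48 libraries. The submitters' processing notes name bcl2fastq 2.20.0, FastQC 0.11.8, STAR 2.7.9a, featureCounts 1.5.1 and GRCm38. The annotation release and the strand setting of the counting are not given in the sources used here. Symbols came from the GENCODE M21 annotation for 55141 identifiers.

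Each of 8 comparisons was fitted on its 12 libraries with a mean for each of 4 groups, using the quasi-likelihood test of edgeR 4.0.16 (R 4.3.3, limma 3.58.1) with TMM factors, filterByExpr and Benjamini-Hochberg adjustment over all genes tested at 0.05. Effects were averaged over the strains, taken within each strain and compared between strains. Alternatives were other scaling factors, no filter, DESeq2 1.42.0, all 48 libraries in a common fit, a replicate block and leaving out each library. In a check on simulated data of 14474 genes, the tunicamycin comparison at 24 h recovered 91% of 100 genes changed by 1 on the log2 scale, with 4% false calls, and the normoxia comparison 95%, with 7.1% false calls.

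The members and lists were chosen with earlier results of these data known. All members are named, and a few other genes and a motif searched are not reported here. Of the other lists, genes with a mean log2 CPM of at least 1 were named from the 2 largest increases and the 2 largest decreases past the threshold in each time or oxygen comparison, and likeness used the 3 highest correlations per member. Intervals and floors cover counting error only.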

Additional observations from a re-analysis of the deposited data

Results flagged for a closer look

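For Slco2a1, the change from 24 h controls to normoxia differed between the strains by -0.57 on the log2 scale (DBA/2J minus C57BL/6J, SE 0.12, adjusted p = 0.00517, edgeR interaction test), with means going from 277.5 to 44.5 CPM in C57BL/6J, and in DBA/2J from 265.3 to 26.5 CPM. The 3 DBA/2J normoxia libraries all lay below the 3 of C57BL/6J.

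For Slco4c1, the change from normoxia to normoxia-hyperoxia differed between the strains by 2.66 on the log2 scale (SE 0.728, adjusted p = 0.0245, edgeR interaction test), with means going from 12.9 to 1.32 CPM in C57BL/6J, and in DBA/2J from 1.02 to 0.714 CPM. Without replicate 3 of DBA/2J under normoxia-hyperoxia the difference was 2.64 (adjusted p = 0.0964).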

How the results depend on the processing

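No member's called change reversed under any alternative run, and no drug comparison gave a called member. Tests of strain differences moved most. For normoxia against 24 h controls 1 member passed, against 4 with no filter on low counts and 2 with DESeq2 or all 48 libraries in a common fit, and 1 to 4 when a library was left out. It was 4 without replicate 2 of the DBA/2J 24 h controls and 2 without replicate 1 of C57BL/6J under normoxia. For normoxia-hyperoxia against normoxia 1 passed, against 2 with library totals alone, DESeq2 or all 48 libraries, 3 with no filter, and 0 to 2 when a library was left out. For 24 h against 6 h, 0 passed and 2 with no filter. Strain differences passed for 2 to 5 members under normoxia-hyperoxia, 2 to 4 in 6 h controls and 2 to 4 in 24 h controls when a library was left out. The low value was reached under normoxia-hyperoxia without DBA/2J replicate 1, and in 6 h controls without C57BL/6J replicate 2 or 3 or DBA/2J replicate 2. The cause was not tested.

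The labels do not say that a replicate number marks a shared source, and replicate numbers were not used as pairs because not every same-numbered pair had a correlation of deviations over 0.1 (0 to 4 of 6 in each comparison). The mean correlation of a comparison ran from 0.02 to 0.14, and a shared source is not excluded by this. With the replicate block, 2 members passed the strain difference for normoxia against 24 h controls and 2 for normoxia-hyperoxia against normoxia, where Slco2b1 then differed by 1.12 (adjusted p = 0.0297), and Slco3a1 in 24 h controls differed between strains by 0.29 (adjusted p = 0.0529).

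Over all genes, tunicamycin at 24 h gave 233 calls against 395 with no filter and 536 with DESeq2, and 78 to 344 when a library was left out. Cyclosporin A gave 0 at 6 h and at 24 h against 45 and 19 with DESeq2. The strain difference in normoxia-hyperoxia against 24 h controls gave 247 calls against 1156 with no filter, 618 with the replicate block and 685 with DESeq2, and that of 24 h against 6 h gave 117 against 817, 71 and 329. Leaving out a library gave 103 to 524 and 46 to 226. Scaling by library totals alone shifted the median of all genes by -0.27 for normoxia, -0.17 for normoxia-hyperoxia and 0.21 for 24 h against 6 h. Low counts limit Slco1a4 and Slco4c1.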

Other observations

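Replicate 2 had the lowest Slco1a1 level in 13 of the 16 groups, the lowest Slco1a6 level in 11 and the lowest Slco3a1 level in 10. It also had the lowest summed level of the proximal tubule markers in 11 of the 16 groups. For Slco2a1 replicate 2 was the lowest in 2 groups and the highest in 8. These counts were made after the values were seen, and whether a replicate number marks a shared mouse, day or batch is not given in the labels.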
